A study of Homo sapiens with 36 samples.

Results

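SPEN, MKI67, GOLGB1, DNAH14, LINC00342 and AC159540.1 are the 6 genes with the most RNA windows enriched by immunoprecipitation of RBM22 in HEK293T cells, an established human embryonic kidney line. The 6 were chosen by that number of windows, out of 2617 genes with at least 1 RBM22 window and 11298 genes with a window for any protein. They held 482 of the 8671 RBM22 windows, or 5.56%. RBM22 windows were found in 23.2% of all genes with any window, a background from which nothing is read here because the count itself chose the members. The windows come from eCLIP, in which RNA crosslinked to a protein is fragmented with RNase I, recovered with an antibody and sequenced next to an input library. RBM22, CPSF6, RNPS1, EIF4B, GRB2, MBNL2, CPSF5, RBM10 and LGALS3 were each assayed with 2 immunoprecipitated (IP) and 2 input libraries, 36 in all; the labels name no treatment. The labels name either an antibody to the protein or one to a V5 tag and do not say which was used for RBM22.

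The deposited lists keep the windows that passed in both replicates. For each window they give IP and input reads summed over the replicates, and a log2 odds ratio of IP over input for the lower and the higher of the 2 replicates. No value is given per library, so values below are stated as the lower and the higher replicate and no test over samples could be made. The odds ratios, q-values and reads are the authors' own. The depth of the libraries is unknown, since only reads inside listed windows were deposited: 780368 IP and 184870 input reads for RBM22, and between 187076 and 13313477 IP reads for the other lists. A window missing from a list may lack enrichment in one or both replicates or lack coverage, which the lists do not separate.

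RBM22 is a core protein of the spliceosome, the machine that removes introns. It enters around the time of activation, where it touches the U6 small nuclear RNA and intron bases near the 5′ splice site, the boundary at which an exon ends and an intron begins. Coding exons, introns far from splice sites and noncoding exons are therefore not the places for which the protein is best known. CPSF6 belongs to cleavage factor Im and carries an arginine and serine rich domain, and RNPS1 is a splicing activator that joins the exon junction complex.

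A 5′ splice site of SPEN, a transcriptional repressor that binds RNA, held an RBM22 window at the kind of place for which the protein is known. SPEN lies on chromosome 1, plus strand, from 15847707 to 15940456 in GRCh38.p14, and had 6 RBM22 windows that the authors label as adjacent to a 5′ splice site. The bases of 2 listed windows at the most upstream of these sites could be read from RefSeq's promoter table, as the reverse complement of the entry for SPEN-AS1, a gene on the opposite strand whose start lies here. The GC content of both stretches was 80%, the value that the authors deposited for these windows. Shown first are the last 20 bases of the exon, then the window adjacent to the splice site and the window that follows it, all 5′ to 3′ on the plus strand. Capitals mark the first 6 bases of the intron.
SPEN exon end, chr1:15848131-15848150: atcatcgagcatttcaaacg
SPEN intron, adjacent window, chr1:15848151-15848250: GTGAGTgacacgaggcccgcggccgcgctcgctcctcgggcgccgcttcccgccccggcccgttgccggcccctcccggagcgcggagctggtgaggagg
SPEN intron, following window, chr1:15848251-15848350: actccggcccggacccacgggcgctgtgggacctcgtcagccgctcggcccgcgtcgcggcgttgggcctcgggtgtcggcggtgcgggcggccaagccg
The adjacent window held 157 IP and 15 input reads for RBM22, with a log2 odds ratio of 2.44 (lower replicate) and 2.63 (higher replicate). The following window held 92 IP and 21 input reads, with 1.24 and 1.30. Enrichment was thus higher in the window that holds the splice site, in both replicates. Both windows were also listed for CPSF6 and CPSF5, and the adjacent one for GRB2. A 5′ UTR window upstream, at 15847887 to 15847976, had 2.43 and 2.91, so this value was not particular to the splice site. The other SPEN windows next to 5′ splice sites had 33 to 97 IP reads and 2 to 14 input reads. Their lower-replicate log2 odds ratio was at least 1.53. In the higher replicate they had 3.56 to 4.52, all above the 2.63 of the site shown.

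Such windows were the exception in these genes. Of the 482 windows, 10 (2.07%) lay next to a 5′ splice site: 6 in SPEN, 3 in AC159540.1 and 1 in LINC00342. Over the whole RBM22 list the share was 20.1%. It followed the number of windows per gene, at 45.3% in the 1379 genes with 1 window, 29.1% in the 814 genes with 2 to 4, 16.1% in the 255 genes with 5 to 9 and 7.28% in the 163 other genes with 10 or more. Coding windows ran the other way, from 11.7% in genes with 1 window to 39.7% in the 163 genes and 45.6% in the 6. The 482 windows of the 6 genes thus stand at one end of a gradient over the list. For coding windows this did not hold gene by gene. Their share was 71.2% in SPEN, 91.9% in MKI67 and 98.3% in GOLGB1, while DNAH14, LINC00342 and AC159540.1 had no coding window. The share next to a 5′ splice site was at most 5.08% (SPEN) in each of the 6, below the 7.28% of the 163 genes. The gradient is a description, because the number of windows chose the members. The low share was that of the adjacent class alone. Windows labelled proximal to a 5′ splice site were 4.56% of the 482, against 4.12% of all RBM22 windows, and 17.1% in AC159540.1.

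The members fell into 3 kinds by where their windows lay. SPEN, MKI67 and GOLGB1 had them in coding sequence, with 84 of 118, 79 of 86 and 57 of 58 windows. DNAH14 had 92 of 93 in the class that the authors label as intron, apart from the classes around splice sites. LINC00342 had 44 of 57 in noncoding exons, and AC159540.1 had 32 of 70 in introns, 22 in noncoding exons and 12 in the class labelled proximal to a 5′ splice site.

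**Figure D1:**
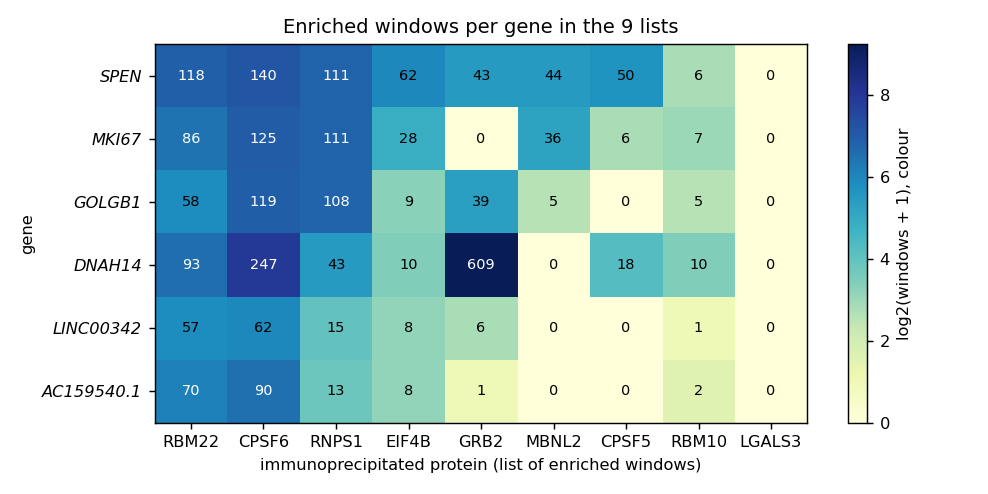
Number of enriched windows per gene (rows) in the list of each protein (columns), printed in the cells and shaded by log2(windows + 1). RBM22 counts run from 57 to 118, CPSF6 has 62 to 247 windows in every gene, DNAH14 has 609 GRB2 windows, and LGALS3 has none.

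In SPEN the 67 RBM22 windows of a single coding exon made up 56.8% of the gene's total. The exon's listed windows span 15928190 to 15936266 on chromosome 1, and RBM22 was listed in 67 of at least 82 windows, or 81.7%. SPEN protein has RNA recognition motifs at one end and a SPOC domain at the other, and it is needed for gene silencing by Xist. The longest unbroken stretch, 25 adjoining windows from 15932677 to 15935169, held 4857 IP and 857 input reads. In that stretch the lower-replicate log2 odds ratio was between 0.81 and 2.89, with a median of 1.77 and a higher-replicate median of 2.33. No window of the stretch reached the gene's strongest value. The same exon was covered by 73 windows of CPSF6, 58 of RNPS1, 37 of EIF4B and 28 of MBNL2. GRB2, CPSF5, RBM10 and LGALS3 had none in it.

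A second stretch in SPEN crossed exon and intron alike. Its 13 adjoining windows, from 15872876 to 15874026, bear coding, start codon, 5′ splice site and 5′ UTR labels. They held 966 IP and 164 input reads, with a median log2 odds ratio of 2.18 (lower) and 3.64 (higher). GC content there was between 31.8% and 57%. The strongest SPEN window lay in it, at 15873677 to 15873763, with 58 IP and 7 input reads and log2 odds ratios of 3.74 and 3.94. The window with the most reads was elsewhere, in the 5′ UTR at 15847887 to 15847976, with 619 IP and 55 input reads and odds ratios of 2.43 and 2.91. That window was also listed for CPSF6, RNPS1, EIF4B, MBNL2 and CPSF5.

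MKI67 encodes Ki-67, a protein of dividing cells that coats mitotic chromosomes and contains a long run of tandem repeats. It lies on chromosome 10, minus strand, from 128096659 to 128126423. One coding exon, from 128102579 to 128109423, held 60 of its 86 RBM22 windows, in 60 of at least 69 window positions (87.0%), with 21 windows in the longest stretch. CPSF6 and RNPS1 each had 65 windows in this exon, MBNL2 had 27 and EIF4B 12. The strongest RBM22 windows, at 128108233 to 128108331 and 128105654 to 128105752, had 82 and 94 IP reads against 7 and 11 input reads. Their log2 odds ratios were 3.58 and 3.66 for the first and 3.08 and 3.34 for the second, so the replicates were close there. Over all RBM22 windows of MKI67 the median gap between replicates was 0.73. The rest of the gene's 79 coding windows lay outside this exon, with 5 in the exon from 128114928 to 128116007. A further 6 windows lay in the 3′ UTR and 1 in the 5′ UTR. No RBM22 window of MKI67 lay in an intron or beside a splice site.

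GOLGB1 encodes giantin, a long coiled-coil golgin that tethers vesicles at the Golgi. It lies on chromosome 3, minus strand, from 121663201 to 121749966. Most of its 58 windows lay in a pair of coding exons, 37 in the exon from 121693741 to 121698929 and 16 in the exon from 121690670 to 121692581. RBM22 coverage was more broken than in SPEN and MKI67, with 71.2% of the window positions of the larger exon in 14 stretches and at most 8 adjoining windows. CPSF6 had all 52 positions of the larger exon and RNPS1 51. The strongest window was in another exon, at 121716817 to 121716897, with 29 IP and 2 input reads and log2 odds ratios of 3.69 and 3.79. The most reads, 82 IP and 18 input, fell at 121695138 to 121695236, where the odds ratios were 2.80 and 2.81.

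**Figure D2:**
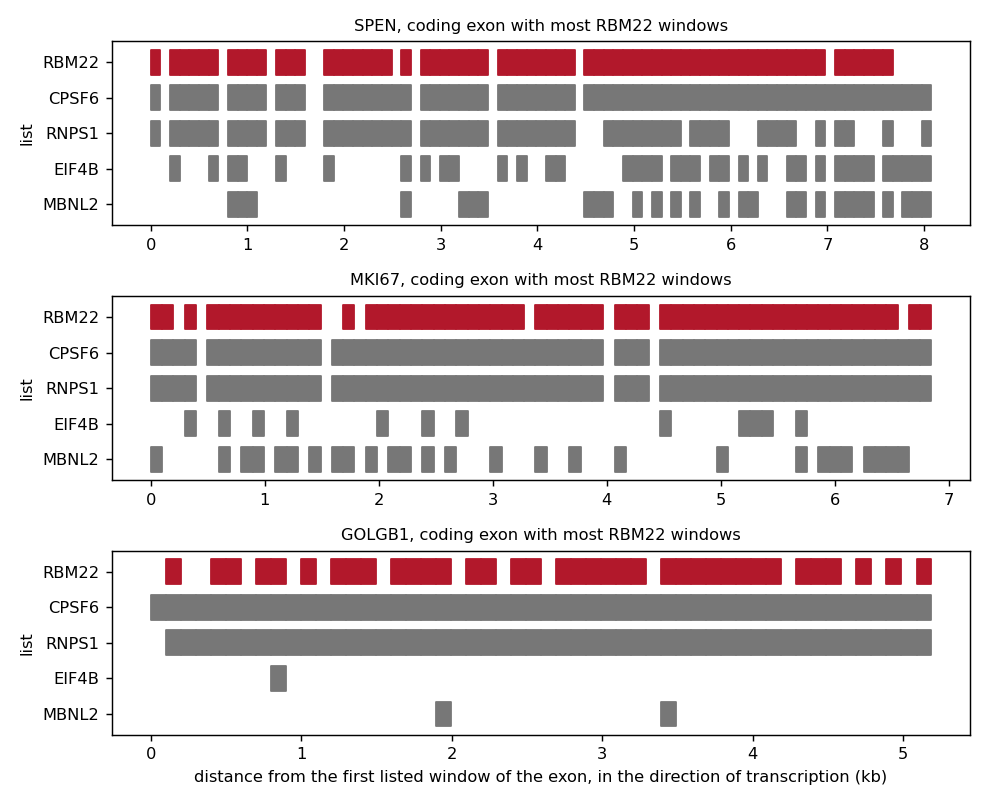
Listed windows in the coding exon with most RBM22 windows of SPEN, MKI67 and GOLGB1, by distance (kb) from the first listed window of the exon in the direction of transcription. Bars are windows, RBM22 in red and other lists in grey. RBM22 fills 67, 60 and 37 windows, all of them listed for CPSF6 too, and all for RNPS1 except 11 windows in SPEN.

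DNAH14, which encodes an axonemal dynein heavy chain, a motor of cilia, was bound in introns. It lies on chromosome 1, plus strand, from 224929654 to 225399286. All 92 windows labelled as intron fell in 3 introns, with 25, 42 and 25 windows. In each intron, the segment from the first to the last of these windows took up part of the intron. These ran from 224933825 to 224938909, from 224976349 to 224988018 and from 225017326 to 225023114. The middle segment had a gap, with no RBM22 window between those at 224980139 to 224980238 and 224983231 to 224983330. The segments begin 4171, 46695 and 87672 nt past the annotated start. The last listed window of any protein lay 214901 nt past it, in a gene of 469633 nt. The lists therefore hold nothing from the larger, downstream part of the gene.

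Enrichment in DNAH14 rested on fewer reads than in SPEN, MKI67 and GOLGB1, by a margin that varied. The median RBM22 window of DNAH14 held 27 IP and 6 input reads. It held 135.5 and 28 in SPEN, 90.5 and 19 in MKI67, and 37.5 and 11 in GOLGB1. Over all RBM22 windows the medians were 36 and 6. The strongest window, at 225017925 to 225018024, had 38 IP and 2 input reads, and both replicates gave 4.28. The next, at 224985526 to 224985624, had 30 IP reads and 1 input read, with 4.02 and 5.28. A further window had 20 IP reads and no input read at 225020220 to 225020319, where a log2 odds ratio of 3.99 in the lower replicate rests on that empty input.

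CPSF6 and GRB2, a signalling adaptor, were also listed in these introns. From upstream to downstream the segments held 49, 81 and 57 CPSF6 windows, and 25 of 25, 41 of 42 and 25 of 25 RBM22 windows were among them. GRB2 had 32, 97 and 7 windows in the same segments, which took in 17, 34 and 5 of the RBM22 windows. The most downstream segment thus held every RBM22 window as a CPSF6 window but few GRB2 windows, although its intron held 97 GRB2 windows in all. Over the gene, 76.2% of 601 intronic GRB2 windows and 90.4% of 219 intronic CPSF6 windows were in the 3 introns.

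**Figure D3:**
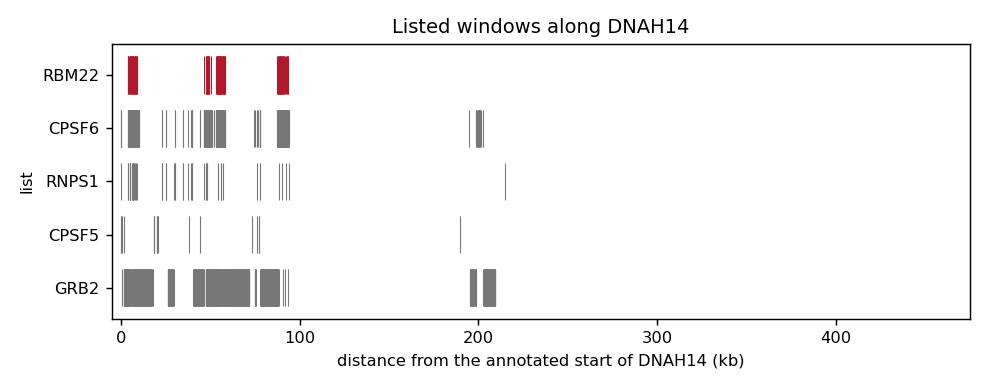
Listed windows along DNAH14 (vertical lines) for RBM22 (red) and 4 other lists (grey), by distance from the annotated start of the gene (kb). RBM22 windows form narrow groups in 3 introns, each matched by CPSF6, while GRB2 windows spread over wider tracts. No list has a window past 215 kb (214901 nt).

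LINC00342 and AC159540.1 are annotated as long noncoding RNAs, both on the minus strand of chromosome 2. RefSeq places LINC00342 at 95807052 to 95826981, while its RBM22 windows reach 95833080 by the authors' annotation, so that 17 of them lie outside the RefSeq gene. AC159540.1 had windows from 97424706 to 97433527 and has no entry under this name in the RefSeq table, which holds the other 5 genes. In LINC00342 a noncoding exon from 95816724 to 95819724 was listed in 30 of at least 31 windows without a break. A further exon, from 95828204 to 95829589, was listed in 14 of at least 14 windows.

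These 2 genes had the highest median RBM22 odds ratios of the 6 over all their windows, which hold a median of 6 and 4 input reads. With at least 10 input reads, LINC00342 kept 7 windows and AC159540.1 kept 2, and AC159540.1 was then the lowest of the 6 in the lower replicate. The strongest window, at 95819047 to 95819143 in LINC00342, had 83 IP reads and 1 input read, with log2 odds ratios of 5.42 and 7.23. In AC159540.1, a window at 97426971 to 97427070 had 31 IP reads and no input read, with 5.07 and 5.61. A 5′ splice site window of AC159540.1, at 97433200 to 97433299, had 81 IP and 4 input reads, with 4.78 and 5.16. Another, at 97429117 to 97429216, had 40 and 2 reads, with 4.39 and 5.28. Both were above the gene's median of 3.06, and its remaining 5′ splice site window, at 97425778 to 97425877, was below it at 2.67 with 17 IP and 5 input reads.

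The 2 noncoding genes had a like course of GC content over part of their length. When the GC content of listed windows was laid along each gene and one was slid past the other, the best fit came at a shift of 1609127 nt, with a Pearson correlation of 0.80 over 4273 nt covered in both, and windows of both genes outside that part were not compared. The next best shift, more than 500 nt away, gave 0.26 over 3187 nt. These are descriptions across windows, which are not independent, and the shift was picked for its fit. One 5′ splice site was then taken in each gene, and the 2 sites did not coincide exactly at this shift. Measured upstream of the LINC00342 site, the adjacent windows were centred at -50 nt in LINC00342 and -23 nt in AC159540.1. GC content from the adjacent window inward was 29, 39, 39, 36 and 48% in LINC00342. It was 32, 37, 39, 34 and 48% in AC159540.1. Lower-replicate log2 odds ratios for RBM22 in the first 4 of these windows were 2.45, 3.95, 3.81 and 3.93 in LINC00342. They were 2.67, 3.41, 3.92 and 3.17 in AC159540.1, and by this value the last window was the lowest in both genes. By the higher replicate the genes differed. The adjacent window was the highest in LINC00342, at 5.98, and the lowest in AC159540.1, at 2.72. The last window then had 3.20 in LINC00342 and 3.46 in AC159540.1. How alike the bases of the 2 genes are was not tested, and neither was any sharing of reads between them. RBM22 covered 2562 nt in common at this shift, 45.9% of the RBM22 bases of LINC00342 and 37.6% of those of AC159540.1.

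**Figure D4:**
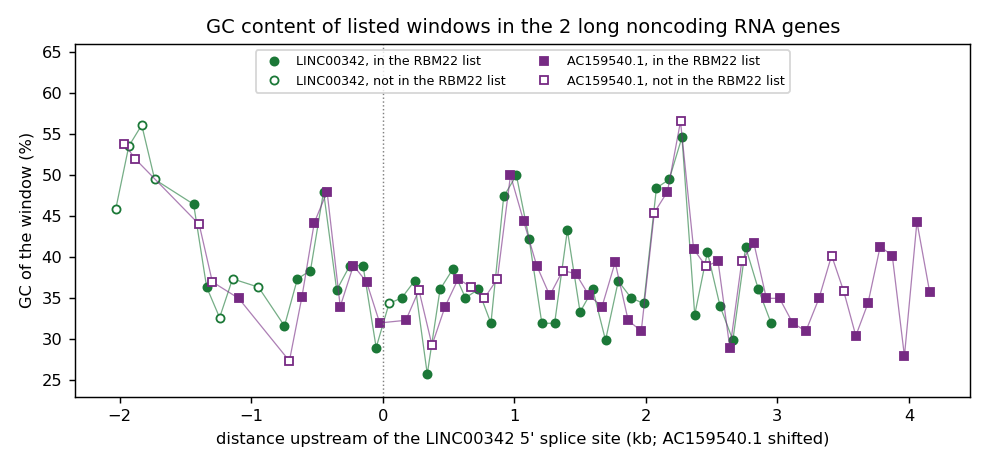
GC content (%) of listed windows in LINC00342 (green circles) and AC159540.1 (purple squares, shifted by 1609127 nt), by distance upstream of a 5′ splice site of LINC00342 (kb). Filled symbols are RBM22 windows and open symbols windows of other lists only. The profiles follow each other, with a correlation of 0.80 where both are covered.

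Across all listed windows of the 6 genes, the median enrichment was lowest in SPEN and highest in AC159540.1. Among windows with at least 10 input reads, AC159540.1 was highest by the higher-replicate values only, on 2 windows. Lower and higher are taken window by window, so neither need be a single library. The median log2 odds ratio in the lower and the higher replicate was 1.92 and 2.66 for SPEN, 1.95 and 2.72 for MKI67 and 2.09 and 2.88 for GOLGB1. It was 2.23 and 3.01 for DNAH14, 2.90 and 3.82 for LINC00342 and 3.06 and 3.99 for AC159540.1. All RBM22 windows together had 2.12 and 2.90. The median gap between replicates within a window was 0.56 to 0.92 in the 6 genes. That gap is the spread of a single window, not of a median, and the files allow no error on the medians. The genes also differed in depth: the median window had 90.5 IP reads in MKI67 against 34 in AC159540.1. The median input was 19 reads in MKI67 against 4 in AC159540.1. IP depth did not separate coding from noncoding genes, with a median of 37.5 IP reads in GOLGB1 and 41 in LINC00342. Their median input was 11 and 6 reads. With at least 10 input reads, a filter added after seeing the data, the lower-replicate median was 1.88 in SPEN, 1.94 in MKI67, 1.94 in GOLGB1, 1.90 in DNAH14 and 2.12 in LINC00342 (7 windows). AC159540.1 then had 2 windows, at 1.56 and 2.01. In the higher replicate the same windows had medians of 2.61 in SPEN, 2.70 in MKI67, 2.70 in GOLGB1, 2.42 in DNAH14, 3.04 in LINC00342 and 3.20 in AC159540.1. Input reads are the denominator of the odds ratio, so this filter tends to take out windows with high ratios. It left the noncoding genes 7 and 2 windows and cannot show what their lead rests on. Where the largest q-value was at most 0.05, a cut that favours high ratios, the lower-replicate median was 2.11 in SPEN and 2.12 in MKI67. It was 2.49 in GOLGB1, 2.61 in DNAH14, 2.96 in LINC00342 (50 windows) and 3.28 in AC159540.1 (56 windows).

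**Figure D5:**
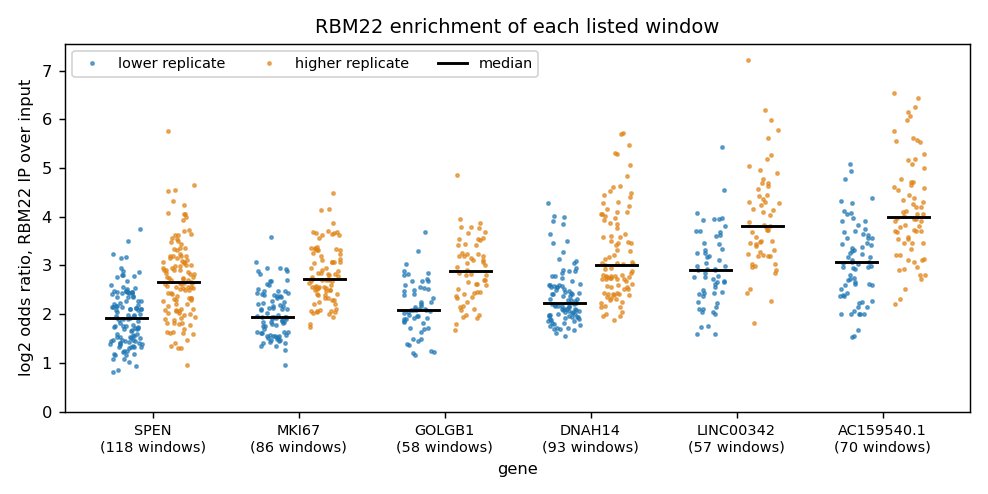
Log2 odds ratio of RBM22 IP over input for every listed window (points) of each gene, in the lower (blue) and higher (orange) of 2 replicates, with medians as black bars. Lower-replicate medians run from 1.92 in SPEN to 3.06 in AC159540.1.

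A larger share of windows in these genes passed a stricter threshold, which is a description only. The members were chosen by their number of RBM22 windows, and these q-values come from the same calls. The largest q-value of the 2 replicates was at most 0.05 in 331 of 482 windows (68.7%), against 34.8% of all RBM22 windows. It was met by 82 windows in SPEN, 71 in MKI67, 56 in AC159540.1, 50 in LINC00342, 39 in DNAH14 and 33 in GOLGB1. DNAH14 and GOLGB1 were thus the members whose counts rest most on weakly supported windows.

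The other 8 lists are readouts that the choice of members did not use. CPSF6 windows were found in 6 of the 6 genes, as in 84.2% of all 11298 genes with any window. RNPS1 and EIF4B also had windows in all 6, against 87% and 89.2% of genes. RBM10 had windows in all 6, against 45.1%. GRB2 was listed in 5 (46.7% of genes), MBNL2 in 3 (62.2%), CPSF5 in 3 (61.1%) and LGALS3 in 0 (3.27%). The 163 other genes with at least 10 RBM22 windows are a closer background. Among them, 163 had CPSF6, 163 RNPS1, 160 EIF4B and 145 RBM10 windows. GRB2 was listed in 121 of them, MBNL2 in 139, CPSF5 in 137 and LGALS3 in 20. The 6 genes thus matched the 163 for CPSF6 and RNPS1, while MBNL2 and CPSF5 were missing from 3 of the 6. With 6 genes, no test was made of this.

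The number of windows varied more. The 6 genes had a median of 122 CPSF6 windows, against 70 in the 163 genes, and 75.5 RNPS1 windows against 52. The other lists ran the other way, with 9.5 against 13 EIF4B windows, 22.5 against 30 of GRB2, 2.5 against 7 of MBNL2, 3 against 5 of CPSF5 and 5.5 against 8 of RBM10. LGALS3 had a median of 0 in both. SPEN had rank 4 among all genes in the CPSF5 list with 50 windows, of which 13 were intronic, 10 in the 3′ UTR and 8 proximal to a 5′ splice site. It ranked 18 in the EIF4B list with 62 windows. DNAH14 had rank 5 in the CPSF6 list with 247 windows and 28 in the GRB2 list with 609. MKI67 had 36 MBNL2 windows and none of GRB2. The noncoding genes had no MBNL2 or CPSF5 window.

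RBM22 windows in these genes were almost all CPSF6 windows too. Of 482 RBM22 windows, 464 had the same coordinates in the CPSF6 list (96.3%), against 68.8% of all 8671 RBM22 windows. The share was 100% in MKI67 and GOLGB1, 98.9% in DNAH14, 98.6% in AC159540.1, 93.0% in LINC00342 and 89.8% in SPEN. Among the 163 other genes the median share was 90.9%, and 45 of them reached 100%, and 85.5% of all their windows were shared. Read from the other side, the shared windows were 37.2% of the CPSF6 windows of DNAH14, 48.7% in GOLGB1, 68.8% in MKI67, 75.7% in SPEN, 76.7% in AC159540.1 and 85.5% in LINC00342. In no member did RBM22 cover every CPSF6 window. The CPSF6 list is 155533 windows long and the RBM22 list 8671, and the part of list length in this share was not tested.

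The RNPS1 share was high in the 3 genes with coding-exon windows and low in the other 3, DNAH14 among them. It shared 96.5% of the RBM22 windows of MKI67, 94.8% of those of GOLGB1 and 72.9% of those of SPEN. In LINC00342 and AC159540.1 it shared 21.1% and 12.9%, and in DNAH14 13 of 93 windows. Over all RBM22 windows the RNPS1 share was 49.7%, and the median over the 163 genes was 57.9%. In MKI67 the shared windows had a median lower-replicate log2 odds ratio of 1.95 for RBM22 and 3.90 for RNPS1, and in AC159540.1 3.70 for RBM22 and 2.49 for RNPS1. Odds ratios of different lists were computed separately and are set side by side only.

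The remaining lists each shared mainly with 1 or 2 of the genes. EIF4B held 43.2% of the SPEN windows of RBM22 and 20.9% of those of MKI67, and between 3.45% and 11.4% in the other members, against 21.1% of all RBM22 windows. MBNL2 held 34.9% in MKI67 and 30.5% in SPEN, against 11% overall. CPSF5 held 22.0% in SPEN and at most 2.33% in the others, against 3.9% overall. GRB2 held 60.2% in DNAH14 and at most 4.24% elsewhere, against 3.63% overall. RBM10, a regulator of alternative splicing, held 7 of the 482 windows (1.45%), against 17.3% of all RBM22 windows and 12.5% in the 163 genes. Only 9 of the 482 were in no other list (1.87%), against 6.43% in the 163 genes and 17.7% over the whole RBM22 list.

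Genes just outside the group had nearly as many windows. XIST, a long noncoding RNA, had 55 windows, CENPF 54, KMT2A 52, SLAIN1 50, and DUXAP9 and SRRM2 45 each, next to 57 in LINC00342 and 58 in GOLGB1 just inside. CENPF, a kinetochore protein gene, and KMT2A, a histone methyltransferase gene, had 53 and 52 of theirs in coding sequence. SLAIN1 had 49 and DUXAP9 43 in introns. Their median lower-replicate log2 odds ratios were 1.47 in XIST, 1.65 in CENPF, 2.03 in KMT2A, 2.57 in SLAIN1, 1.72 in DUXAP9 and 1.46 in SRRM2. Of these, XIST, CENPF, DUXAP9 and SRRM2 lay below the lowest member, SPEN at 1.92.

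The relatives of the members are read against the 23.2% of genes with an RBM22 window. All 6 of the large mitotic protein genes examined had RBM22 windows, 54 in CENPF, 35 in ASPM, 11 in CENPE, 7 in TOP2A and 2 each in NUSAP1 and KIF20B. This set was grouped by size and role, and no background of genes of like size was made, so no preference for mitotic genes is read from it. Of 8 other golgin genes, GOLGA4 had 33 and GCC2 had 2, and the other 6 had none, a share close to that background. All 8 had CPSF6 windows, against 84.2% of genes. RBM15, a relative of SPEN, had 17 and RBM15B none. None of 13 other dynein heavy chain and related genes had a window in any list, so DNAH14 was the only listed gene of those examined. The ANKRD36, ANKRD36B and ANKRD36C genes, of which ANKRD36C follows LINC00342 in RefSeq, had 7, 9 and 4.

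By the profile of window counts over the 9 lists, compared as the Pearson correlation of log2(windows + 1) among 169 genes with at least 10 RBM22 windows, SPEN was most like KMT2A (0.94), SON and ASH1L. MKI67 was most like IRS4 (0.96), POLR2J4 and TPR. GOLGB1 was most like ZNF37BP (0.96), MRPS25 and ZNF621, and DNAH14 most like ABCA11P:ZNF721 (0.98), UBE2E2 and LYPLAL1. LINC00342 was most like XRCC2 (0.96), AC159540.1 (0.96) and RP11-734K23.9, and AC159540.1 most like RP11-734K23.9 (0.98), XRCC2 and LINC00342. Each correlation rests on 9 points that include RBM22 itself and share the length and abundance of the transcripts.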

How the data were processed

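The authors deposited 1 table per protein of windows enriched in IP over input in both replicates. Read counts per window were summed over replicates by the authors. The log2 odds ratio was deposited as lower, mean and higher value over replicates, per the file headers, and p-values and q-values were deposited by their extremes over replicates. GC was deposited as a fraction and is printed as a percentage. The feature labels and the number of a window within its feature are the authors' too. Per the submitters' processing notes, hg38 was the build. Aligner and window caller: not given in the sources used here. Coordinates are 1-based.

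Windows were taken by gene name and compared between lists by identical coordinates, with Python 3.11.15, numpy 2.4.6 and pandas 2.3.3 (plots: matplotlib 3.10.9). The number of window positions of a feature is the highest window number listed for any protein, a lower bound. Functions were tested on simulated data. SPEN sequence came from RefSeq's promoter table for GRCh38.p14, the one place where it covered whole RBM22 windows of a member. Likeness used a pseudocount of 1. For each member, the 3 strongest windows and the 3 with most IP reads were eligible to be named, with the 6 genes next in RBM22 windows, the 3 most alike genes and fixed lists of relatives. The longest stretches in SPEN and the 5′ splice site windows were named after their values were seen. Members and lists were chosen with earlier results of these data known. Replicates are separate libraries, and the labels do not say whether they were separate cultures. No p-value was computed, because no value per library was available.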

Additional observations from a re-analysis of the deposited data

How the results depend on the processing

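Of 161 alternative values, 90 stayed within these limits and 71 moved: 1.5 times for counts, the 95% exact binomial interval for shares, the median replicate SD of a window for odds ratios, and rank 6. Merging adjoining windows left 34 stretches in SPEN, 25 in MKI67, 23 in GOLGB1, 46 in DNAH14, 7 in LINC00342 and 14 in AC159540.1. A lower-replicate log2 odds ratio of at least 2 left 54 RBM22 windows in SPEN, 40 in MKI67 and 35 in GOLGB1. At least 10 input reads left 38 in GOLGB1, 23 in DNAH14, 7 in LINC00342 and 2 in AC159540.1. A q-value of at most 0.05 left 33 in GOLGB1 and 39 in DNAH14. Ranked by IP reads, MKI67 was 13, GOLGB1 33, DNAH14 25, LINC00342 28 and AC159540.1 26, while SPEN was 4. The median log2 odds ratio in the higher replicate was 2.66 in SPEN, 2.72 in MKI67, 2.88 in GOLGB1, 3.01 in DNAH14, 3.82 in LINC00342 and 3.99 in AC159540.1, and the mean of replicates gave 2.40 in SPEN. With at least 10 input reads, chosen after seeing the data, the lower-replicate median was 2.12 in LINC00342 and 1.79 in AC159540.1. The coding share of SPEN was 82.5% by IP reads and 81.7% at the stricter q-value, where GOLGB1 was 100% coding and DNAH14 100% intronic.

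At the stricter q-value SPEN had 36 EIF4B, 12 GRB2, 25 MBNL2, 27 CPSF5 and 2 RBM10 windows. MKI67 had 13 EIF4B, 14 MBNL2, 1 CPSF5 and 2 RBM10, and GOLGB1 had 5 EIF4B, 5 GRB2, 1 MBNL2 and 0 RBM10. DNAH14 had 28 RNPS1, 6 EIF4B, 6 CPSF5 and 4 RBM10. LINC00342 had 8 RNPS1, 4 EIF4B and 1 GRB2, and AC159540.1 had 7 RNPS1, 1 EIF4B, 0 GRB2 and 1 RBM10. As a share of each list, SPEN was highest in CPSF5 (0.129%) and MKI67 in MBNL2 (0.0838%), in place of CPSF6. Counting windows within 100 nt as shared, CPSF6 took in 96.6% in SPEN and 100% in DNAH14 and AC159540.1. RNPS1 then took in 95.8% in SPEN, 100% in MKI67 and GOLGB1, 48.4% in DNAH14, 50.9% in LINC00342 and 41.4% in AC159540.1. With the stricter q-value in both lists, CPSF6 shared 89.7% in DNAH14 and 100% in AC159540.1, and RNPS1 shared 0% in DNAH14, 12% in LINC00342 and 7.14% in AC159540.1. The cause of these moves was not tested.

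No paired analysis was possible because the columns carry no value per library, and leaving out a replicate was not run for the same reason. Depth limits the windows with few or no input reads, whose odds ratios are the least certain.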
